A study of Homo sapiens with 12 samples.

Results

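Separate routes to stronger WNT signalling were set against each other gene by gene, as the effect of a CTNNB1 open reading frame minus the effect of APC knockdown, to find the genes that answered one perturbation and not the other, or that moved in opposite directions. The comparison used all 12 of the 12 RNA-seq libraries, in 4 groups of 3. It covered 11741 of the 25528 rows of the deposited expression table, those with a mean of at least 1 TPM (transcripts of the gene relative to all transcripts in the library) over the 12 libraries. All libraries came from HT-29, a human colon adenocarcinoma cell line whose genotype is given as APC mutant. For the CTNNB1 arm, cells were infected with lentivirus carrying an open reading frame for GFP (the control) or for CTNNB1, and were harvested on day 2 of infection. For the shAPC arm, cells were infected with lentivirus carrying a short hairpin RNA, either the control shNT1 or a hairpin against APC (shAPC), and were harvested 1 day after 2 µM doxycycline was added. Vector, harvest time and doxycycline thus differed between the arms and cannot be told apart from the perturbation in any difference between them. The labels name neither the number of hairpins nor of infections, and all values come from 1 cell line. Nothing in the labels says that the 3 libraries of a group came from separate cultures, so p-values measure the spread between libraries, which may be technical.

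Beta-catenin, the product of CTNNB1, is the transcriptional co-activator of canonical WNT signalling. APC is a scaffold of the cytoplasmic complex that phosphorylates beta-catenin and hands it to the ubiquitin ligase that targets it to the proteasome. In colon cancer cells truncated APC leaves part of this control in place, so that both more beta-catenin and less APC can raise the transcription of WNT target genes. APC also binds microtubules and the cell cortex, and beta-catenin also joins cadherins to the cytoskeleton.

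The libraries were comparable in content. Between 14756 and 16186 genes per library had a TPM above 0, the 10 most abundant genes took 9.07% to 11.3% of the TPM, and the correlation of log2(TPM + 1) within a group was between 0.9912 and 0.9974 (Pearson, across genes). Of the markers of colon epithelium, EPCAM, KRT8, KRT18, KRT20, CDH1, VIL1 and LGALS4 were well expressed (at least 63.4 TPM in every library), whereas CDH17, CDX1 and CDX2 stayed under 1 TPM in every library. Of 16 markers of other cell types, 14 stayed at or under 0.694 TPM in every library, with CD3E, RBFOX3, ALB and APOA2 at 0, while LYZ (6466 to 8019 TPM) and CD68 (6.06 to 27.4 TPM), listed for leukocytes, were expressed. How many reads lie behind each library is unknown, since TPM does not record it.

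Of the perturbed genes, APC differed between the arms and CTNNB1 did not pass the test. APC was measured at 14.1, 13.8 and 14.2 TPM in GFP, 19.4, 15.3 and 14.9 TPM in CTNNB1, 15.8, 16.1 and 17.3 TPM in shNT1, and 6.59, 5.91 and 5.48 TPM in shAPC. The 3 shAPC libraries lay below all others and did not overlap shNT1. On the log2 scale APC changed by -1.32 after shAPC (SE 0.09, limma adjusted p = 2.2e-07) and by 0.21 after CTNNB1 (SE 0.09, limma adjusted p = 0.1), a difference of 1.53 (SE 0.13, limma adjusted p = 1.2e-05). Without CTNNB1 replicate 2 or 3 APC was no longer classed as changed in the shAPC arm only, while its difference had an adjusted p of at most 8.1e-05. CTNNB1 was measured at 144, 145 and 150 TPM in GFP, 165, 160 and 156 TPM in CTNNB1, 150, 145 and 156 TPM in shNT1, and 155, 155 and 140 TPM in shAPC. The CTNNB1 libraries lay above the GFP libraries without overlap, and the hairpin groups overlapped. It changed by 0.13 on the log2 scale after CTNNB1 (SE 0.05, limma adjusted p = 0.069) and by 0.00 after shAPC (SE 0.05, limma adjusted p = 0.96). The difference of 0.13 did not pass the threshold (SE 0.07, limma adjusted p = 0.2). The 95% interval of the CTNNB1 effect, 0.02 to 0.23, leaves room for only a small rise in the level counted for CTNNB1. Whether reads of the introduced open reading frame were counted there is not given in the sources used here. The CTNNB1 group is therefore named by its label throughout.

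Most canonical WNT targets rose in both arms. Of 25 tested WNT target and feedback genes, 20 rose in each arm, where 17.4% of all genes rose after CTNNB1 and 8.53% after shAPC. The arms differed for 7 of them (28%, against 9.48% of all genes) under both ways of scaling the libraries described below, 3 with a positive and 4 with a negative difference. The median difference of the list was -0.02 as deposited and -0.13 after median-ratio scaling, beside 0.11 and 0.00 over all genes tested. SLC12A2, the basolateral Na-K-Cl cotransporter, was the one member that changed in the CTNNB1 arm only. It was measured at 744, 732 and 736 TPM in GFP, 1199, 1040 and 954 TPM in CTNNB1, 833, 832 and 908 TPM in shNT1, and 826, 916 and 791 TPM in shAPC. CTNNB1 libraries were all above GFP, and the hairpin groups overlapped (difference 0.55, SE 0.10, limma adjusted p = 0.0039). RNF43, a ubiquitin ligase that removes WNT receptors, was the one member that changed in the shAPC arm only, from 77.2 ± 4.69 TPM in shNT1 to 104 ± 7.39 TPM in shAPC (SD, n = 3), against 85.3 ± 1.85 and 91.2 ± 4.29 TPM in GFP and CTNNB1 (SD, n = 3). Its difference was -0.33.

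Across all genes the arms differed for 1885 of 11741 (16.1%, Benjamini-Hochberg adjusted p under 0.05 by limma), 1561 with a positive difference (13.3%) and 324 with a negative one (2.76%). A positive difference means that the gene was higher after CTNNB1, relative to GFP, than after shAPC relative to shNT1. The balance of directions depended on scaling. After each library was divided by the median ratio of its genes to their mean over libraries, 1443 genes differed (12.3%), 793 positively and 650 negatively, so that positive differences made up 55.0% of the calls in place of 82.8%. Genes are therefore described here only where both scalings gave the same call, which held for 1113 genes (9.48%), 793 positive (6.75%) and 320 negative (2.73%). As deposited, 2885 genes were called in the CTNNB1 arm (24.6%) and 2988 in the shAPC arm (25.4%). The count of 1885 fell to 1092 without GFP replicate 1, to 995 without GFP replicate 2, to 1246 without shAPC replicate 2 and to 1021 without shAPC replicate 3.

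The kinds of response were then separated into classes, each required under both scalings. Opposite responses, with the difference and both arms called and of opposite sign, were found for 91 genes (0.775% of 11741), 74 higher after CTNNB1 and lower after shAPC (0.63%) and 17 the reverse (0.145%). Responses to CTNNB1 only, with the difference and the CTNNB1 arm called and the shAPC arm uncalled and under 0.25 in absolute log2 fold change, were found for 350 genes (2.98%), 209 up (1.78%) and 141 down (1.2%). By the mirrored rule 386 genes responded to shAPC only (3.29%), 64 up (0.545%) and 322 down (2.74%). A further 89 genes moved in the same direction by unequal amounts (0.758%), and 1274 fell into different classes under the different scalings (10.9%). No difference was called for 9526 (81.1%). Without GFP replicate 1 the classes held 60, 213 and 256 genes. Without GFP replicate 2 the CTNNB1-only class held 218, and without shAPC replicate 3 the shAPC-only class held 212.

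**Figure D1:**
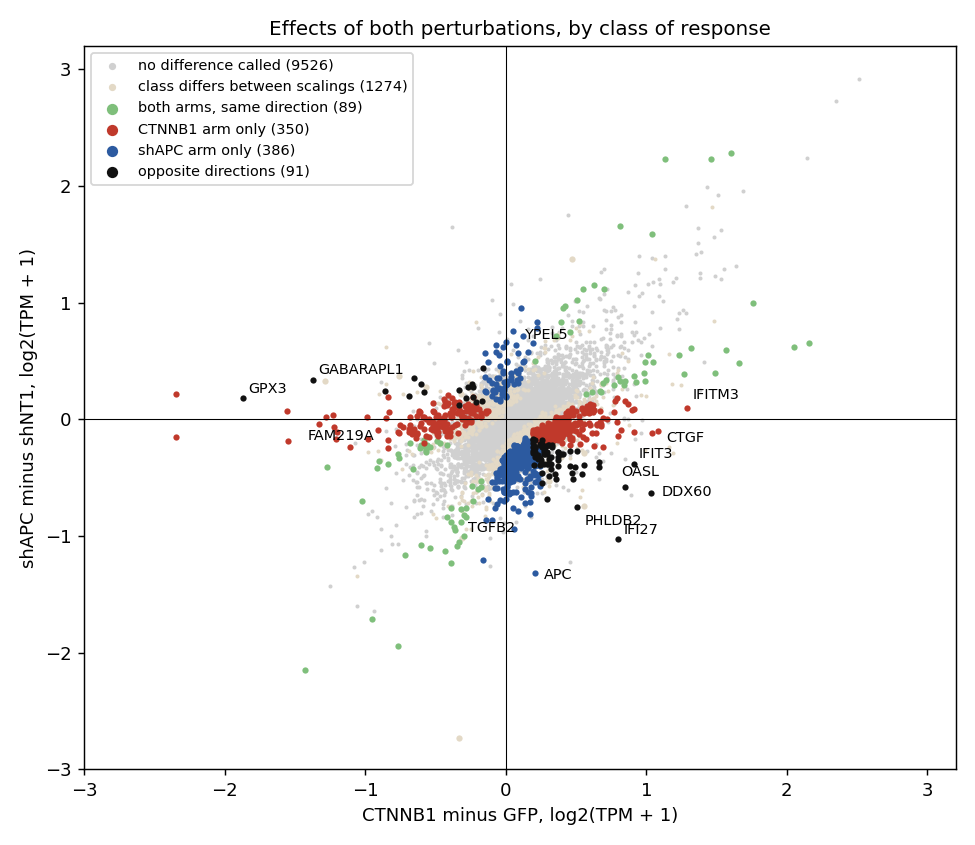
Effect of shAPC (shAPC minus shNT1, vertical axis) against effect of CTNNB1 (CTNNB1 minus GFP, horizontal axis), both in log2(TPM + 1) as deposited, with 1 point for each of 11741 genes coloured by class. The 91 opposite genes lie in the upper left and lower right of the plot, the 350 CTNNB1-only genes along the horizontal axis and the 386 shAPC-only genes along the vertical axis. A further 25 genes with a called difference in no class share the colour of the genes whose class differs between scalings.

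The genes that rose after CTNNB1 and fell after shAPC were led by interferon-stimulated genes. By size of the difference the first 4 with a mean of at least 5 TPM and no perturbed library within the range of its controls in either arm (a property of 43.1% of all genes in the CTNNB1 arm and 41% in the shAPC arm) were IFI27, DDX60, OASL and IFIT3, followed by PHLDB2, which anchors microtubule ends at the cell cortex. Many interferon-stimulated genes carry the interferon-stimulated response element in their promoters. Their products include sensors of double-stranded RNA and proteins that block viral replication.

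IFI27 (ENSG00000275214), an interferon-induced membrane protein, was measured at 1.46, 1.86 and 1.95 TPM in GFP, 3.5, 4.04 and 3.87 TPM in CTNNB1, 16.7, 15.9 and 13.1 TPM in shNT1, and 6.41, 6.34 and 8.15 TPM in shAPC. The 4 groups did not overlap, with GFP lowest, shNT1 highest and both perturbed groups between the controls. IFI27 thus rose by 0.80 after CTNNB1 (SE 0.11, limma adjusted p = 0.00012) and fell by 1.03 after shAPC (SE 0.11, limma adjusted p = 1.5e-05), a difference of 1.83 (SE 0.16, limma adjusted p = 1.4e-05).

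DDX60 (ENSG00000137628), a helicase that promotes RNA sensing by RIG-I, was measured at 2.16, 1.75 and 2.26 TPM in GFP, 5.88, 5.32 and 4.57 TPM in CTNNB1, 11, 9.07 and 10.8 TPM in shNT1, and 6.46, 5.74 and 6.57 TPM in shAPC. The order was as for IFI27, except that the CTNNB1 and shAPC libraries overlapped. Its changes were 1.03 after CTNNB1 (SE 0.10, limma adjusted p = 6.2e-06) and -0.63 after shAPC (SE 0.10, limma adjusted p = 0.00047), a difference of 1.67 (SE 0.14, limma adjusted p = 1.5e-05).

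OASL (ENSG00000135114), a relative of the oligoadenylate synthetases, was measured at 7.34, 6.19 and 8.18 TPM in GFP, 15, 14.4 and 12 TPM in CTNNB1, 23.6, 23.7 and 20.1 TPM in shNT1, and 15, 13.4 and 15.6 TPM in shAPC. Again GFP was lowest and shNT1 highest, with the perturbed groups overlapping between them (difference 1.42, SE 0.15, limma adjusted p = 5.9e-05). IFIT3 (ENSG00000119917), which binds viral RNA together with IFIT1, was measured at 6.71, 6.11 and 6.87 TPM in GFP, 15.7, 12.6 and 11.5 TPM in CTNNB1, 14.9, 15.8 and 14.8 TPM in shNT1, and 12.6, 10.9 and 10.9 TPM in shAPC. For IFIT3 the CTNNB1 libraries reached the shNT1 range, and GFP alone stood apart from the other 3 groups (difference 1.28, SE 0.14, limma adjusted p = 7.5e-05). All 4 genes kept their class with any one of the 12 libraries left out.

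DDX60 is interferon-induced but was not on the interferon gene list. Further members of that list with opposite changes were IFI6, OAS3, IFI44 and TAPBP, which were chosen after their values had been seen. IFI6, an interferon-induced protein that protects cells from apoptosis, was measured at 3.36, 3.52 and 3.32 TPM in GFP, 6.9, 5.7 and 5.38 TPM in CTNNB1, 14.5, 12.6 and 11.8 TPM in shNT1, and 10, 9.74 and 8.78 TPM in shAPC. No library of one group fell within the range of another. OAS3, the synthetase whose product activates RNase L, went from 12.4, 12.1 and 13.2 TPM in GFP to 19.8, 18.9 and 18.5 TPM in CTNNB1, and from 23.9, 23.6 and 22.9 TPM in shNT1 to 18.8, 17.4 and 16.8 TPM in shAPC, so that both controls were apart from both perturbed groups. The differences were 1.07 for IFI6 (SE 0.13, limma adjusted p = 0.0002), 0.96 for OAS3 (SE 0.08, limma adjusted p = 1.5e-05) and 0.93 for IFI44 (SE 0.14, limma adjusted p = 0.00076). TAPBP, the tapasin subunit that loads peptides onto MHC class I, differed by 0.70 (SE 0.09, limma adjusted p = 0.0004) and left the class without CTNNB1 replicate 2. Some of these genes have close paralogs (the OAS and IFIT families), and how reads shared between paralogs were assigned is not given in the sources used here.

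**Figure D2:**
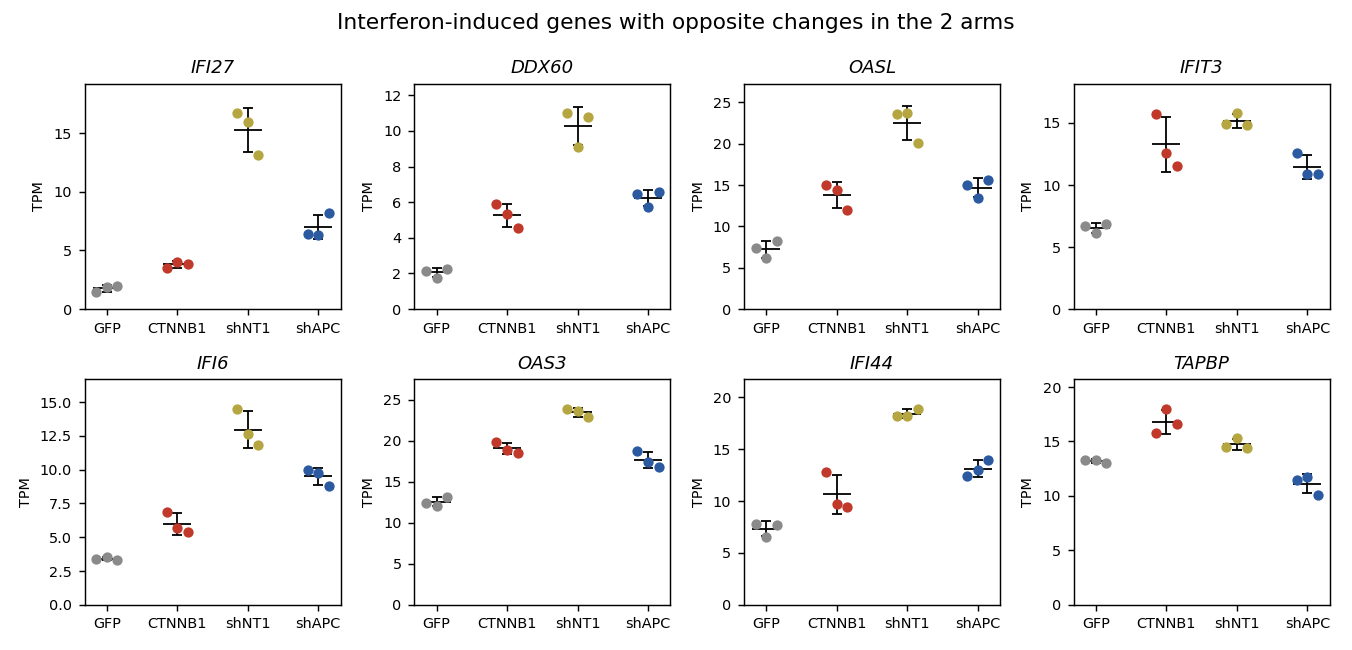
TPM in each library (points, 3 per group) with the group mean and SD (bars) for 8 genes with opposite changes, 7 from the interferon list and DDX60, 1 panel per gene, linear axes from 0. In every panel the CTNNB1 points lie above the GFP points and the shAPC points below the shNT1 points, and for IFI27, DDX60, OASL, IFI6, OAS3 and IFI44 the shNT1 libraries are the highest of the 4 groups.

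Over the whole list of interferon response and antigen presentation genes, 30 of 41 listed symbols were expressed enough to be tested. Of these, 12 had a positive difference under both scalings (40%, against 6.75% of all genes) and 0 had a negative one. By class, 7 were opposite and higher after CTNNB1 (0.63% of all genes). Another 2 rose after CTNNB1 only (1.78% of all genes) and 2 fell after shAPC only (2.74%). As deposited, 14 members rose and 1 fell after CTNNB1, while 0 rose and 14 fell after shAPC. Of all genes, 17.4% rose and 7.17% fell after CTNNB1, while 8.53% rose and 16.9% fell after shAPC. The median difference was 0.40 as deposited and 0.29 after median-ratio scaling, beside 0.11 and 0.00 over all genes. With any one library left out, 10 to 12 members had a called positive difference.

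The 2 members that changed in the CTNNB1 arm only were IFIT1 and DDX58, and those that changed in the shAPC arm only included OAS1. IFIT1, which binds the caps of foreign RNA, rose from 2.05 ± 0.0318 TPM in GFP to 5.28 ± 0.595 TPM in CTNNB1 and was 5.89 ± 0.302 and 5.39 ± 0.898 TPM in shNT1 and shAPC (SD, n = 3). The change after shAPC, -0.12, had a 95% interval of -0.34 to 0.11. DDX58, which encodes the RNA sensor RIG-I, rose by 0.52 after CTNNB1 (limma adjusted p = 0.001) and changed by -0.13 after shAPC (limma adjusted p = 0.33). OAS1 fell by 0.44 after shAPC (limma adjusted p = 0.001) and changed by 0.01 after CTNNB1 (limma adjusted p = 0.95). HLA-C, HLA-E and B2M, which encode chains of MHC class I molecules, had no called difference by limma. B2M, the shared light chain, differed by 0.21 (limma adjusted p = 0.14).

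The controls held the extremes of this list. The mean log2(TPM + 1) of its 30 members was 3.41, 3.41 and 3.49 in GFP, 3.81, 3.73 and 3.63 in CTNNB1, 4.08, 4.10 and 4.08 in shNT1, and 3.89, 3.79 and 3.84 in shAPC. Every GFP library was below and every shNT1 library above all libraries of the perturbed groups. GFP had the lowest group mean for 21 of the 30 genes and shNT1 the highest for 22. Over all genes tested, GFP was lowest for 4882 and shNT1 highest for 3070 of 11741. What part the GFP and shNT1 levels have in these opposite changes was not tested.

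**Figure D3:**
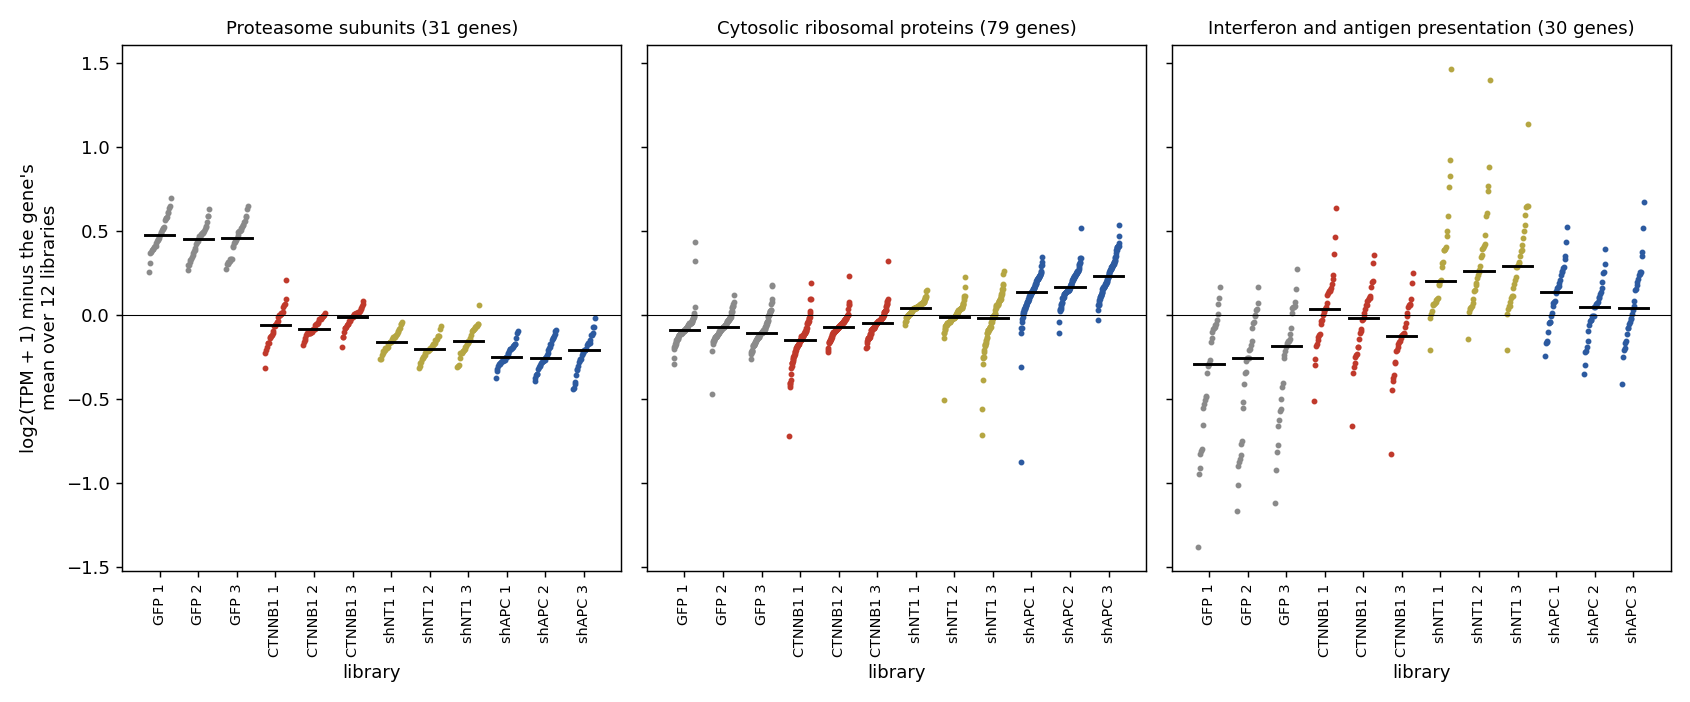
Each member's log2(TPM + 1) minus its own mean over the 12 libraries, by library, for 31 proteasome subunits, 79 cytosolic ribosomal proteins and 30 interferon and antigen presentation genes, with members sorted within a library and the black line at their median. Proteasome subunits are high in the 3 GFP libraries, ribosomal proteins in the 3 shAPC libraries, and interferon genes are low in GFP and high in shNT1.

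Promoters of IFI27, DDX60, IFIT3, IFI6 and IFIT1 were selected to show the response element and do not stand for the whole list. OASL had no promoter sequence among those found. Each window holds the 250 bases before the start of transcription from RefSeq on GRCh38.p14, read 5′ to 3′ on the gene's strand. Capitals mark a core of the interferon-stimulated response element, GAAA followed by any 2 bases and another GAAA, or the same read on the other strand. This motif was added after the results had been seen. IFI27 lies at chr14:94110486-94110735, plus strand, DDX60 at chr4:168318753-168319002, minus strand, IFIT3 at chr10:89327747-89327996, plus strand, IFI6 at chr1:27672193-27672442, minus strand and IFIT1 at chr10:89392373-89392622, plus strand.
IFI27: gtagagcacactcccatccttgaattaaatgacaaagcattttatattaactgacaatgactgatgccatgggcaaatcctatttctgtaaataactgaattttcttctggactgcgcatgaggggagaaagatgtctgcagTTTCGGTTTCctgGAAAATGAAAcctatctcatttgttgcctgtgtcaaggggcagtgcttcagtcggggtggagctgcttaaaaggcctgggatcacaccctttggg
DDX60: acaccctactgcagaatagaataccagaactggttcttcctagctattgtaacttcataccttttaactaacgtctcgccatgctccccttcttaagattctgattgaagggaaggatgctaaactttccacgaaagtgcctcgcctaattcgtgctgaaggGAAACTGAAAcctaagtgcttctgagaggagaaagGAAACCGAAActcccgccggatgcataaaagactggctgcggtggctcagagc
IFIT3: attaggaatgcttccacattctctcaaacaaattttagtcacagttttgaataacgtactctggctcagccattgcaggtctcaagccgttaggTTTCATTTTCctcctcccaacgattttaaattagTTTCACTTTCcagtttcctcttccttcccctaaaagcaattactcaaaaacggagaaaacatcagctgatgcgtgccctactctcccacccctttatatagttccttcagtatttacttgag
IFI6: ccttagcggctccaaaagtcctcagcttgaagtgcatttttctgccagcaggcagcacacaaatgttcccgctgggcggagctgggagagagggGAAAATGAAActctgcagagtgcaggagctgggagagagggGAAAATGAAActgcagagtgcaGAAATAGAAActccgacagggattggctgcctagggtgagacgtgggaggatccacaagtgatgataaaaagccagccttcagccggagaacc
IFIT1: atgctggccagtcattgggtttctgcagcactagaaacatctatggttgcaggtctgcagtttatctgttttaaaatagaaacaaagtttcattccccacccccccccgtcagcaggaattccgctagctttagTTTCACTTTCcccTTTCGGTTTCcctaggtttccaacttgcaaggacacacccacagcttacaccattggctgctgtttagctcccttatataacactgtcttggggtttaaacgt

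Each of these 5 windows held more than 1 match. In DDX60 they began 88 and 53 bases before the start, in IFIT3 156 and 122, and in IFI6 156, 115 and 93. The paired matches of IFI27 (108 and 95 bases before the start) and IFIT1 (116 and 103) are close together. A promoter sequence was found for 9224 of the 11741 genes. The motif was present in 2.2% of these, in 8 of the 56 opposite genes higher after CTNNB1 that had a promoter (14.3%), and in 16 of 24 members of the interferon list (66.7%), called or not. Windows of CTNNB1-only genes held it in 1.24% (up) and 2.7% (down), and those of shAPC-only genes in 1.89% (up) and 1.53% (down). A match describes the letters of the window and not binding. The TCF/LEF motif CTTTGAT, the site of the partners of beta-catenin, was in 1.2% of all windows, in 4 of the 161 windows of genes that rose after CTNNB1 only (2.48%) and in 0 of the 56 opposite windows, too few windows for a motif this rare to read anything from the 0.

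Outside the interferon list, the named opposite genes of this direction were PHLDB2 and single members of other lists. PHLDB2 (ENSG00000144824) was measured at 8.59, 8.18 and 8 TPM in GFP, 13.7, 11.5 and 11.5 TPM in CTNNB1, 21.3, 21.4 and 23.8 TPM in shNT1, and 13.1, 12.1 and 13.1 TPM in shAPC. As with DDX60, both controls stood apart on opposite sides of the perturbed groups, which overlapped (difference 1.26, SE 0.11, limma adjusted p = 1.4e-05). DUSP4, a phosphatase that switches off ERK, was measured at 9.28, 9.27 and 9.87 TPM in GFP, 12.5, 12.1 and 11.3 TPM in CTNNB1, 12.8, 13.7 and 13.7 TPM in shNT1, and 9.42, 9.04 and 9.33 TPM in shAPC. Here shAPC overlapped GFP, and CTNNB1 lay just below shNT1 (difference 0.80, SE 0.09, limma adjusted p = 9.4e-05). TPM1, a tropomyosin of actin filaments, differed by 0.63 (SE 0.06, limma adjusted p = 5.8e-05), CTSZ, a lysosomal cathepsin, by 0.59, CLDN1, a tight junction claudin, by 0.65, and NSD2, a histone H3 methyltransferase, by 0.57.

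Chosen after their values had been seen, ID2, an inhibitor of basic helix-loop-helix factors, and F2R, the thrombin receptor, had differences close in size to the interferon genes. ID2 was measured at 59.6, 60.4 and 58.2 TPM in GFP, 108, 94.3 and 81.8 TPM in CTNNB1, 113, 114 and 137 TPM in shNT1, and 100, 90.2 and 90.3 TPM in shAPC. The groups of each arm did not overlap, and the perturbed groups did (difference 1.02, SE 0.13, limma adjusted p = 0.00024). F2R differed by 0.90 (SE 0.11, limma adjusted p = 0.0002). Over the 74 genes of this class, CTNNB1 had the highest group mean for 38 and shNT1 for 36, and shAPC had the lowest for 40 and GFP for 34. The class rule leaves only these groups for each extreme, so the split describes the members only. Of the 73 that carry a gene symbol, 30 kept the class with any one library left out. CLDN1 kept it in 8 of the 12 such fits, losing it without shNT1 replicate 1 or 2 or shAPC replicate 1 or 3 (shAPC adjusted p up to 0.043 as deposited), and NSD2 in 9, where its CTNNB1 effect reached an adjusted p of 0.074, losing it without GFP replicate 1, GFP replicate 2 or CTNNB1 replicate 1.

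The 17 genes with the reverse pattern, lower after CTNNB1 and higher after shAPC, included the antioxidant enzymes GPX3 and MSRB1 and the autophagy genes GABARAPL1 and SQSTM1. Of the 38 tested autophagy and lysosome genes, 4 had a negative and 2 a positive difference under both scalings (15.8%, against 9.48% of all genes), and 1 of the latter, CTSZ, was opposite in the other direction. GPX3 (ENSG00000211445), a secreted glutathione peroxidase that contains selenocysteine, was measured at 120, 115 and 118 TPM in GFP, 31, 32.7 and 30.4 TPM in CTNNB1, 23.8, 22.4 and 23.9 TPM in shNT1, and 27.9, 28.4 and 23.9 TPM in shAPC. GFP stood far above the other 3 groups, and the highest shNT1 and the lowest shAPC library were nearly level. The fall after CTNNB1 was large (-1.87, SE 0.06, limma adjusted p = 3.8e-10), whereas the rise after shAPC was small and close to the threshold (0.18, SE 0.06, limma adjusted p = 0.046). In the fits with 1 library left out the latter reached an adjusted p of 0.17, and GPX3 kept the opposite class in 2 of 12 (without CTNNB1 replicate 1 or shAPC replicate 3), while its difference had an adjusted p of at most 3.5e-07.

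GABARAPL1 (ENSG00000139112), an ATG8 protein of the autophagosome membrane, was measured at 23, 24.7 and 28.7 TPM in GFP, 11.1, 7.69 and 9.04 TPM in CTNNB1, 12.5, 12.3 and 12.9 TPM in shNT1, and 16.9, 13.7 and 18.3 TPM in shAPC. GFP was again the highest group without overlap, and shAPC lay above shNT1. Its fall of 1.37 after CTNNB1 (SE 0.12, limma adjusted p = 1.8e-06) was set against a rise of 0.34 after shAPC (SE 0.12, limma adjusted p = 0.049), and the gene kept its class in 4 of the 12 fits with 1 library left out (without GFP replicate 3, CTNNB1 replicate 1 or 2, or shAPC replicate 2). SQSTM1 (ENSG00000161011), the autophagy receptor p62 and itself a target of NRF2, was measured at 252, 239 and 249 TPM in GFP, 157, 172 and 166 TPM in CTNNB1, 154, 156 and 154 TPM in shNT1, and 196, 179 and 171 TPM in shAPC. For SQSTM1 the groups of both arms were apart, and it kept the class in all 12 fits with a library left out (difference -0.81, SE 0.07, limma adjusted p = 2.8e-05).

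MSRB1, a selenoprotein that repairs oxidised methionine, was measured at 49.6, 46.8 and 45.9 TPM in GFP, 28.3, 28.3 and 30.2 TPM in CTNNB1, 25.5, 26.9 and 26.1 TPM in shNT1, and 29.4, 31.2 and 30 TPM in shAPC. GFP was above the other groups, and shAPC overlapped CTNNB1 and lay above shNT1. The effects were -0.69 after CTNNB1 and 0.20 after shAPC (difference -0.90, SE 0.07, limma adjusted p = 1.2e-05). It left the class only without shAPC replicate 2, where the shAPC effect had an adjusted p of 0.051. PRAP1, a secreted protein of the gut epithelium, differed by -1.0 (SE 0.15, limma adjusted p = 0.00091) and FAM241B by -1.10 (SE 0.09, limma adjusted p = 1.4e-05). Each left the class in 3 of the 12 fits with a library left out: FAM241B without shNT1 replicate 1, shAPC replicate 2 or shAPC replicate 3 (shAPC adjusted p up to 0.056), and PRAP1 without shNT1 replicate 1, shNT1 replicate 3 or shAPC replicate 2 (up to 0.13).

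ALDH1A1, a retinaldehyde dehydrogenase chosen after its values had been seen, differed from these genes in where the change lay. It was measured at 1524, 1506 and 1602 TPM in GFP, 1510, 1299 and 1333 TPM in CTNNB1, 1020, 1033 and 1039 TPM in shNT1, and 1407, 1377 and 1413 TPM in shAPC. The hairpin groups were far apart, whereas CTNNB1 overlapped GFP in 1 library (0.44 after shAPC, limma adjusted p = 3.7e-05, and -0.16 after CTNNB1, limma adjusted p = 0.035). It left the class without any one of the GFP libraries or without CTNNB1 replicate 2 or 3, where the CTNNB1 effect reached an adjusted p of 0.15. Of the 17 genes, 3 kept the class with any one library left out. GFP had the highest group mean for 12 of the 17 and shAPC for 5, the only groups that the class rule lets be highest.

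Among genes that fell after CTNNB1 only, 24 of the 141 were subunits of the proteasome, of which 31 were among the 11741 genes tested. That class held 1.2% of all genes. The proteasome degrades ubiquitin-tagged proteins, beta-catenin among them, in a barrel of alpha (PSMA) and beta (PSMB) subunits capped by a particle of ATPases (PSMC) and other subunits (PSMD). All 31 subunits of the list were tested. After CTNNB1 31 of 31 fell, under both scalings, against 7.17% of all genes as deposited and 13% after median-ratio scaling. After shAPC 6 fell as deposited, 3 after median-ratio scaling, and 0 rose. These counts of falls were near or under the shares of all genes that fell after shAPC, 16.9% as deposited and 14.2% after median-ratio scaling. The difference was negative for 29 of 31 under both scalings (2.73% of all genes), with a median of -0.45 as deposited and -0.56 after median-ratio scaling. The 2 exceptions were PSMD7 (-0.13, limma adjusted p = 0.26) and PSMD12 (-0.16, limma adjusted p = 0.24) as deposited. With any one library left out, 27 to 30 subunits had a called negative difference.

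The GFP group stood apart at these genes. Their mean log2(TPM + 1) was 8.47, 8.42 and 8.44 in GFP, 7.92, 7.91 and 7.96 in CTNNB1, 7.83, 7.79 and 7.83 in shNT1, and 7.75, 7.74 and 7.76 in shAPC. GFP stood above all other libraries, and CTNNB1 was the highest of the other 3 groups. GFP had the highest mean for 31 of 31 subunits, and was also the group farthest from the median of the others for all 31. Of the 11741 genes tested, GFP was highest for 2525 and farthest for 3975. Since GFP is the only control of the CTNNB1 arm, a fall after CTNNB1 and a high level in GFP cannot be told apart.

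PSMB3, a beta subunit of the core, was measured at 584, 597 and 561 TPM in GFP, 333, 385 and 417 TPM in CTNNB1, 387, 358 and 334 TPM in shNT1, and 348, 390 and 395 TPM in shAPC. Only GFP was apart, and the other 3 groups overlapped. The effects were -0.62 after CTNNB1 (SE 0.08, limma adjusted p = 4.7e-05) and 0.07 after shAPC (95% interval -0.09 to 0.24). PSMC4, an ATPase of the cap, was measured at 258, 261 and 265 TPM in GFP, 150, 156 and 154 TPM in CTNNB1, 154, 146 and 144 TPM in shNT1, and 138, 140 and 131 TPM in shAPC. Here too GFP was apart, and shAPC lay just under shNT1 (difference -0.65, SE 0.06, limma adjusted p = 2.9e-05). PSMC4 left the class without CTNNB1 replicate 1, where the shAPC effect had an adjusted p of 0.04. PSMB6, another beta subunit, and PSMC6, another ATPase, each differed by -0.66 and kept the class in all 12 fits with a library left out.

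Proteasome genes are known targets of NRF1 and NRF2, factors that bind the antioxidant response element. The window of PSMB3 (chr17:38752491-38752740, plus strand, GRCh38.p14) is printed as the one with the largest difference among the subunits, with the match to TGACNNNGC, a core of that element searched on both strands, in capitals.
PSMB3: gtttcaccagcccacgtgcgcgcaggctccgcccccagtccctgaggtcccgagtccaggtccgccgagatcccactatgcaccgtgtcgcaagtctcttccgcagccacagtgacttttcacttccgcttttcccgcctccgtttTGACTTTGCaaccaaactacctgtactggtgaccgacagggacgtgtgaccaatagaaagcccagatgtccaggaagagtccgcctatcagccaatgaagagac

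The match began 104 bases before the start. The motif was in 3 of the 26 proteasome windows found (11.5%), in 21 of 111 windows of genes that fell after CTNNB1 only (18.9%) and in 12.4% of all 9224 windows.

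Redox genes of the NRF2 response, which detoxify electrophiles and make glutathione, shared the direction of the proteasome. Of 37 tested, 26 fell and 3 rose after CTNNB1, where 7.17% of all genes fell, and 14 fell and 6 rose after shAPC, where 16.9% of all genes fell. The difference was negative under both scalings for 14 (37.8%, against 2.73% of all genes) and positive for 0, with a median of -0.19 as deposited and -0.30 after median-ratio scaling. GFP had the highest group mean for 30 of the 37, and for 2525 of the 11741 genes tested. BLVRB, biliverdin reductase, fell in both arms by unequal amounts. It was measured at 122, 113 and 113 TPM in GFP, 47.9, 50.3 and 44.4 TPM in CTNNB1, 56, 50.6 and 62.6 TPM in shNT1, and 41.4, 42.1 and 42.3 TPM in shAPC. The controls were above the perturbed groups in both arms, GFP by far more (-1.27 against -0.41, difference -0.86, SE 0.10, limma adjusted p = 0.00014). OSGIN1, a growth inhibitor induced by oxidative stress, was measured at 16.8, 16.4 and 18.4 TPM in GFP, 6.36, 7.76 and 8.28 TPM in CTNNB1, 5.99, 6.15 and 6.5 TPM in shNT1, and 5.39, 5.6 and 4.45 TPM in shAPC. GFP was again the highest group, shAPC was the lowest without overlap, and the shAPC effect of -0.24 did not pass (limma adjusted p = 0.085). It passed in some fits with a library left out (adjusted p from 0.039), and OSGIN1 left the class without CTNNB1 replicate 1, shNT1 replicate 1, shAPC replicate 1 or shAPC replicate 2.

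Besides OSGIN1, the genes named from the class that fell after CTNNB1 only were FAM219A, SCPEP1, MAPRE3 and JOSD2. They were ranked by the difference between the arms, among genes with a mean of at least 5 TPM and no overlap in the CTNNB1 arm. FAM219A was measured at 11.9, 10.7 and 13.2 TPM in GFP, 4.37, 4.38 and 4.71 TPM in CTNNB1, 3.03, 4.16 and 3.47 TPM in shNT1, and 3.62, 3.88 and 3.52 TPM in shAPC. MAPRE3, the microtubule plus-end protein EB3, was measured at 13.4, 11.8 and 13.4 TPM in GFP, 6.06, 5.87 and 6.03 TPM in CTNNB1, 6.07, 6.11 and 4.51 TPM in shNT1, and 6.36, 5.19 and 5.28 TPM in shAPC. In both genes GFP lay far above the other groups, and for FAM219A the CTNNB1 libraries also lay just above the hairpin groups (difference -1.28 for FAM219A, limma adjusted p = 8.9e-05, and -1.0 for MAPRE3, limma adjusted p = 0.00062). SCPEP1, a serine carboxypeptidase, differed by -1.03 (limma adjusted p = 0.00022) and left the class without GFP replicate 1, CTNNB1 replicate 1, shAPC replicate 1 or shAPC replicate 3, with an adjusted p of the difference of at most 0.0011. JOSD2, a deubiquitinase, differed by -0.90 (limma adjusted p = 0.022) and left the class without any one of the GFP libraries, shNT1 replicate 3, shAPC replicate 2 or shAPC replicate 3. Its difference was no longer called without GFP replicate 2 (-0.87, adjusted p = 0.054), shNT1 replicate 3 (-0.79, adjusted p = 0.051) or shAPC replicate 2 (-0.85, adjusted p = 0.053). CTSD, a lysosomal aspartic protease, fell by 0.68 after CTNNB1 (SE 0.08) and changed by 0.02 after shAPC (95% interval -0.14 to 0.19). Over the 141 genes, GFP had the highest group mean for 138 and was the group farthest from the median of the others for 128 (90.8%), with CTNNB1 farthest for the remaining 13. The class admits only these groups, so the split describes its members and is no comparison with other genes.

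Genes that rose after CTNNB1 only included 3 targets of YAP and SRF, factors that respond to adhesion and the actin cytoskeleton. Of 29 tested genes of that list, 11 had a positive difference under both scalings (37.9%, against 6.75% of all genes) and 0 a negative one. Of the 29, 3 rose after CTNNB1 only (1.78% of all genes) and 2 fell after shAPC only (2.74%). Another 1 was opposite and higher after CTNNB1 (0.63%). As deposited, 17 rose and 1 fell after CTNNB1, where 17.4% of all genes rose and 7.17% fell. After shAPC 6 rose and 8 fell, where 8.53% of all genes rose and 16.9% fell. The median difference was 0.28 as deposited and 0.18 after median-ratio scaling, and 8 to 12 members had a called positive difference with any one library left out. CTGF (ENSG00000118523), a secreted matricellular protein, was measured at 8.52, 8.14 and 8.86 TPM in GFP, 21.4, 19.5 and 16.6 TPM in CTNNB1, 10.3, 10.1 and 10.1 TPM in shNT1, and 8.72, 10.3 and 9.34 TPM in shAPC. Here the CTNNB1 libraries were the ones apart, above those of every other group, and the hairpin groups overlapped. CTGF rose by 1.08 after CTNNB1 (SE 0.08, limma adjusted p = 6.5e-07) and changed by -0.10 after shAPC (95% interval -0.28 to 0.08). Also CTNNB1-only in this list were VCL, vinculin of focal adhesions (0.41 after CTNNB1, limma adjusted p = 0.00042), and MYH9, a non-muscle myosin heavy chain (0.34, limma adjusted p = 0.0044), named after their values had been seen. AKAP12, a kinase scaffold, rose in both arms by unequal amounts, and TGFB2 was classed with the shAPC-only genes.

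The other genes named from the class that rose after CTNNB1 only, by size of the difference under the same rule, were IFITM3, PIK3AP1, CACNG4 and RHOU. IFITM3, which blocks viral entry and has near-identical paralogs that make its level uncertain, was measured at 12.5, 14.3 and 13 TPM in GFP, 35.8, 33.6 and 32.4 TPM in CTNNB1, 65, 70.1 and 48.4 TPM in shNT1, and 61.8, 67 and 65.3 TPM in shAPC. GFP was lowest, CTNNB1 next, and the hairpin groups overlapped above both (1.29 after CTNNB1, SE 0.10, and 0.10 after shAPC, 95% interval -0.13 to 0.32). Without shNT1 replicate 2 it left the class, with an adjusted p of the difference of at most 0.001. CACNG4, an auxiliary subunit of calcium channels, was measured at 15.9, 17.4 and 17.2 TPM in GFP, 31.7, 34.8 and 31 TPM in CTNNB1, 17.5, 18.7 and 17.6 TPM in shNT1, and 20.7, 19.2 and 17.6 TPM in shAPC. As for CTGF, the CTNNB1 libraries alone were high (difference 0.82, SE 0.10, limma adjusted p = 0.00016). PIK3AP1, an adaptor between receptors and PI3 kinase, rose from 5.5, 6.17 and 5.88 TPM in GFP to 12.1, 11 and 10.3 TPM in CTNNB1, and was 13.4, 11.8 and 13.3 TPM in shNT1 and 12.4, 11.3 and 12.1 TPM in shAPC. Only GFP was apart. RHOU, a small GTPase induced by WNT, differed by 0.82 (SE 0.14, limma adjusted p = 0.0019).

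The 209 genes of this class held genes of both kinds, those with CTNNB1 apart and those with GFP apart. GFP was the group farthest from the median of the others for 137 of them (65.6%) and CTNNB1 for 72 (34.4%), a split that likewise only describes the members. VIL1, villin of the brush border, was measured at 79.9, 79.8 and 84.8 TPM in GFP, 114, 112 and 114 TPM in CTNNB1, 101, 101 and 100 TPM in shNT1, and 104, 93.4 and 93.8 TPM in shAPC. Its GFP libraries were lowest and its CTNNB1 libraries highest, both without overlap (difference 0.52, SE 0.07, limma adjusted p = 0.00031). Most of the 11 tested enterocyte and absorptive genes, the list of VIL1 and KRT20, went the other way. As deposited, 2 rose and 6 fell after CTNNB1, and 1 rose and 8 fell after shAPC. Of all genes, 17.4% rose and 7.17% fell after CTNNB1, and 8.53% rose and 16.9% fell after shAPC. DUSP6, the cytoplasmic ERK phosphatase, was measured at 38.9, 38.6 and 43.8 TPM in GFP, 74.1, 66.4 and 54.8 TPM in CTNNB1, 65.5, 66.7 and 67.6 TPM in shNT1, and 69.9, 62.9 and 64.3 TPM in shAPC. GFP alone was low, and CTNNB1 spanned the range of the hairpin groups (difference 0.69, SE 0.12, limma adjusted p = 0.0027).

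The most numerous class was that of 322 genes that fell after shAPC only. By size of the difference it was led, after APC itself, by TGFB2, PSIP1, KLF6 and ONECUT2 among genes that met the rule for named genes. TGFB2 (ENSG00000092969), a ligand of the TGF-beta receptors, was measured at 4.6, 4.41 and 4.97 TPM in GFP, 5.57, 5.42 and 5.13 TPM in CTNNB1, 6.5, 7.51 and 6.18 TPM in shNT1, and 3.51, 3.44 and 3.26 TPM in shAPC. The 4 groups did not overlap, with shAPC lowest and shNT1 highest. The effect of shAPC was -0.81 (SE 0.08, limma adjusted p = 8.5e-06) and the change after CTNNB1 0.17 (SE 0.08, limma adjusted p = 0.14), a difference of 0.98 (SE 0.12, limma adjusted p = 0.00016). PSIP1 (ENSG00000164985), the chromatin reader LEDGF, was measured at 101, 98.8 and 104 TPM in GFP, 128, 107 and 109 TPM in CTNNB1, 123, 120 and 134 TPM in shNT1, and 82.5, 69.8 and 77.8 TPM in shAPC. Here shAPC alone was low, and CTNNB1 overlapped shNT1 (difference 0.88, SE 0.10, limma adjusted p = 0.00017).

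KLF6 (ENSG00000067082), an early-response zinc finger factor, was measured at 47.2, 46.8 and 49 TPM in GFP, 56.7, 51.3 and 44.6 TPM in CTNNB1, 77, 76.1 and 74.7 TPM in shNT1, and 46.5, 42.2 and 42.3 TPM in shAPC. In contrast to PSIP1 the group apart was shNT1, above all others, and shAPC lay just under GFP (difference 0.87, SE 0.10, limma adjusted p = 0.00015). KLF6 left the class only without CTNNB1 replicate 3, and its difference then and in the other such fits had an adjusted p of at most 0.00078. ONECUT2 (ENSG00000119547), a homeobox factor, was measured at 17.2, 18 and 17.2 TPM in GFP, 24.5, 17.7 and 16.7 TPM in CTNNB1, 25.9, 21.2 and 23.7 TPM in shNT1, and 14.1, 14.4 and 13.1 TPM in shAPC. The shAPC libraries were lowest, and CTNNB1 replicate 1 stood above the others of its group (difference 0.86, SE 0.16, limma adjusted p = 0.0028). Over the 322 genes shAPC was the group farthest from the median of the others for 244 (75.8%) and shNT1 for 78 (24.2%), a split that again only describes the members.

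**Figure D4:**
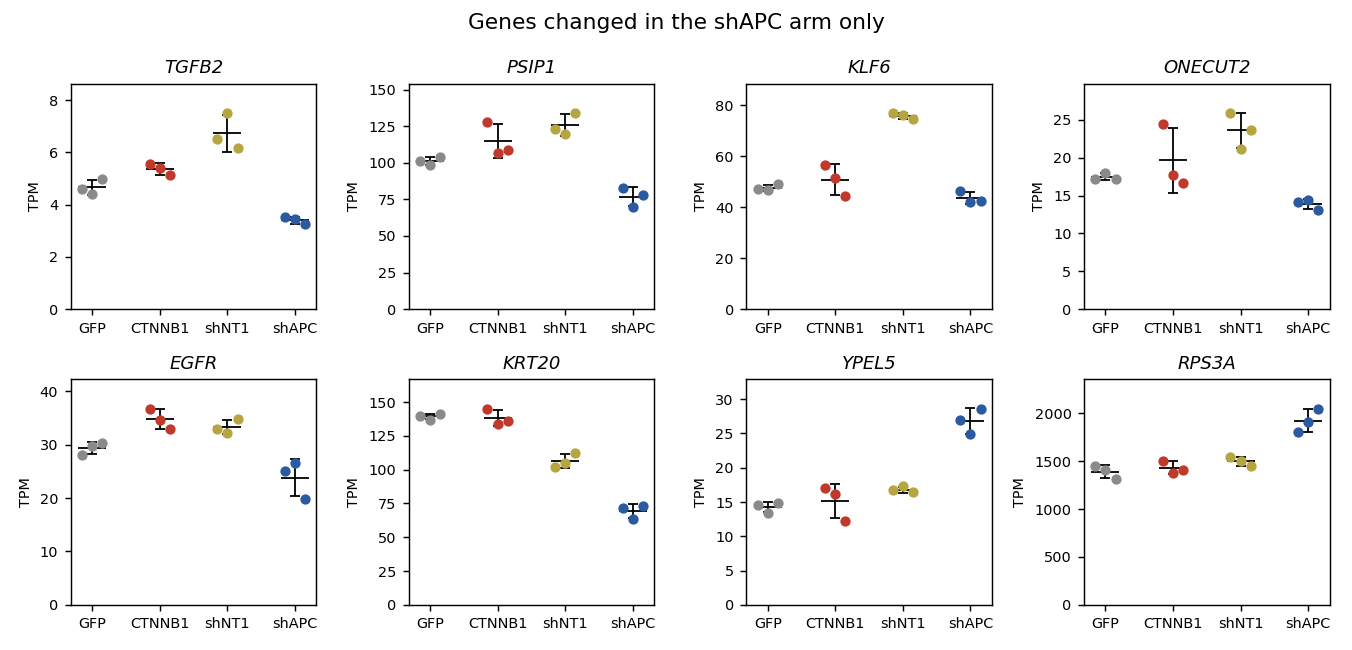
TPM in each library (points, 3 per group) with the group mean and SD (bars) for 8 genes changed in the shAPC arm only, 1 panel per gene, linear axes from 0. TGFB2, PSIP1, ONECUT2, EGFR and KRT20 are lowest in shAPC, YPEL5 and RPS3A highest in shAPC, and KLF6 is highest in shNT1.

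Genes of growth factor signalling divided between the classes. EGFR (ENSG00000146648), the receptor for EGF, was measured at 28.1, 29.7 and 30.3 TPM in GFP, 36.7, 34.6 and 33 TPM in CTNNB1, 33, 32.2 and 34.8 TPM in shNT1, and 25, 26.5 and 19.9 TPM in shAPC. The shAPC libraries were lowest and did not overlap any other group (-0.48 after shAPC, SE 0.08, limma adjusted p = 0.00092, and 0.23 after CTNNB1, SE 0.08, limma adjusted p = 0.056). With its CTNNB1 effect close to the threshold, EGFR left the shAPC-only class without GFP replicate 3, CTNNB1 replicate 3, shAPC replicate 2 or shAPC replicate 3, with an adjusted p of the difference of at most 0.0065. SPRY4, an inhibitor of receptor tyrosine kinase signalling, was measured at 16.3, 16.4 and 17.2 TPM in GFP, 19.6, 19.9 and 16.1 TPM in CTNNB1, 23.8, 24.9 and 25.4 TPM in shNT1, and 19.3, 18.2 and 15.9 TPM in shAPC. For SPRY4 shNT1 was the group apart, and the others overlapped (difference 0.59, SE 0.12, limma adjusted p = 0.0044), and it left the class without CTNNB1 replicate 3. Of 24 tested MAPK feedback genes and members of the EGF family, 25% differed under both scalings, against 9.48% of all genes. The difference was positive for 5 (6.75% of all genes) and negative for 1, EGF at a mean of 1.43 TPM (2.73% of all genes).

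Many DNA replication genes fell after shAPC. Of 41 tested, 0 rose and 20 fell after shAPC as deposited (15 after median-ratio scaling), where 16.9% of all genes fell (14.2% after median-ratio scaling). After CTNNB1 9 rose and 0 fell (3 and 3 after median-ratio scaling), a count of rises near the 17.4% of all genes that rose. The difference was positive for 23 as deposited and for 10 under both scalings (24.4%, against 6.75% of all genes), and 7 were in the shAPC-only class. The mean log2(TPM + 1) of the list was 6.11, 6.11 and 6.16 in GFP, 6.25, 6.22 and 6.24 in CTNNB1, 6.08, 6.05 and 6.19 in shNT1, and 5.98, 5.92 and 5.90 in shAPC, so that shAPC was lowest and CTNNB1 highest without overlap. The count of 10 fell to 4 without GFP replicate 1, 5 without GFP replicate 2, 5 without shNT1 replicate 3 and 6 without shAPC replicate 2. RRM2, the small subunit of ribonucleotide reductase, was measured at 322, 314 and 310 TPM in GFP, 318, 295 and 309 TPM in CTNNB1, 261, 247 and 267 TPM in shNT1, and 197, 188 and 187 TPM in shAPC. The groups of the CTNNB1 arm overlapped, and shAPC lay below shNT1 (difference 0.40, SE 0.06, limma adjusted p = 0.0013). UHRF1, which maintains DNA methylation at the fork, differed by 0.64 (SE 0.12, limma adjusted p = 0.0038) and POLD3, a subunit of DNA polymerase delta, by 0.40 (SE 0.10, limma adjusted p = 0.015). UHRF1 left the class in 5 of the 12 fits with a library left out (GFP replicate 3, CTNNB1 replicate 2, shNT1 replicate 2 or 3, shAPC replicate 3) and POLD3 in 6 (any GFP library, shNT1 replicate 3, shAPC replicate 2 or 3), with adjusted p of the difference of at most 0.014 and 0.041.

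Members of other lists in the same class included KRT20, SCD and MMP7. Of 30 cholesterol and fatty acid synthesis genes, the list of SCD, 2 had a positive difference under both scalings (6.67%), a share near that of all genes (6.75%). KRT20, a keratin of differentiated gut epithelium, was measured at 140, 137 and 141 TPM in GFP, 145, 134 and 136 TPM in CTNNB1, 102, 105 and 112 TPM in shNT1, and 71.4, 63.4 and 73.1 TPM in shAPC. The groups of the CTNNB1 arm overlapped, and shAPC was lowest, below shNT1 (-0.61, SE 0.06, limma adjusted p = 4.3e-06, against -0.01 after CTNNB1, 95% interval -0.13 to 0.11). SCD, the stearoyl-CoA desaturase that makes monounsaturated fatty acids, was measured at 843, 841 and 878 TPM in GFP, 890, 816 and 690 TPM in CTNNB1, 963, 1001 and 1016 TPM in shNT1, and 553, 572 and 519 TPM in shAPC. Again shAPC was lowest without overlap (difference 0.75, SE 0.10, limma adjusted p = 0.00042). MMP7, the protease matrilysin, was measured at 396, 399 and 418 TPM in GFP, 489, 459 and 410 TPM in CTNNB1, 383, 357 and 387 TPM in shNT1, and 269, 286 and 285 TPM in shAPC. The shAPC libraries lay below all others (difference 0.58, SE 0.08, limma adjusted p = 0.00062). SCD and MMP7 each kept the class in 11 of 12 fits with a library left out, SCD losing it without CTNNB1 replicate 1 and MMP7 without CTNNB1 replicate 3, with an adjusted p of the difference of at most 0.0019 and 0.003 over these fits.

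The 64 genes that rose after shAPC only were led, by size of the difference under the rule for named genes, by LOC101929767, MORN2, WBP2, GLRX and YPEL5. YPEL5, a subunit of the CTLH ubiquitin ligase, was measured at 14.6, 13.4 and 14.8 TPM in GFP, 17, 16.1 and 12.3 TPM in CTNNB1, 16.7, 17.3 and 16.4 TPM in shNT1, and 27, 24.9 and 28.6 TPM in shAPC. Only shAPC was apart, above all other libraries (0.64 after shAPC, SE 0.09, and 0.07 after CTNNB1, 95% interval -0.13 to 0.27). WBP2, a WW domain-binding co-activator of YAP, was measured at 35.9, 36.6 and 38.5 TPM in GFP, 33.3, 33.7 and 34.2 TPM in CTNNB1, 38.3, 41.1 and 31.8 TPM in shNT1, and 54.5, 50.7 and 51.4 TPM in shAPC. GLRX, the glutathione-dependent oxidoreductase glutaredoxin, was measured at 9.34, 9.2 and 9.44 TPM in GFP, 9.17, 9.59 and 8.24 TPM in CTNNB1, 12, 10.4 and 9.03 TPM in shNT1, and 16.6, 14.4 and 15.9 TPM in shAPC. In both genes shAPC was again the one group apart (difference -0.62, limma adjusted p = 0.0019, and -0.60, limma adjusted p = 0.0076). MORN2 (difference -0.65, limma adjusted p = 0.033) lost its called difference without GFP replicate 1 (-0.62, adjusted p = 0.073), GFP replicate 2 (-0.59, adjusted p = 0.085), CTNNB1 replicate 1 (-0.66, adjusted p = 0.053), CTNNB1 replicate 2 (-0.66, adjusted p = 0.054) or shAPC replicate 3 (-0.55, adjusted p = 0.09). LOC101929767 (difference -0.71, limma adjusted p = 0.023) lost it without shAPC replicate 2 (-0.69, adjusted p = 0.051) or shAPC replicate 3 (-0.70, adjusted p = 0.056), and WBP2 left the class without shNT1 replicate 3, its difference having an adjusted p of at most 0.0068.

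Cytosolic ribosomal proteins were the list with the most members in that class. All 79 were tested. After shAPC 44 rose as deposited and 45 after median-ratio scaling, and 0 fell under either (8.53% and 12.5% of all genes rose). After CTNNB1 1 rose as deposited and 0 fell. The difference was negative for 10 under both scalings (12.7%, against 2.73% of all genes), all in the shAPC-only class, and positive for 0. The median difference was -0.17 as deposited and -0.29 after median-ratio scaling. RPS3A, a protein of the small subunit, was measured at 1446, 1408 and 1313 TPM in GFP, 1506, 1379 and 1410 TPM in CTNNB1, 1541, 1502 and 1450 TPM in shNT1, and 1809, 1908 and 2047 TPM in shAPC. The shAPC libraries were highest without overlap, and CTNNB1 overlapped GFP (0.36 after shAPC, SE 0.06, limma adjusted p = 0.00035, difference -0.31, SE 0.08, limma adjusted p = 0.017). RPS16, of the small subunit, differed by -0.30 (SE 0.07, limma adjusted p = 0.0085), and RPL13A, of the large subunit, by -0.30 (SE 0.09, limma adjusted p = 0.032).

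These differences were small and moved with the processing. Under quantile normalization 2 of the 79 genes had a called negative difference, RPS16 stood at 0.00 (adjusted p = 0.99), RPL13A at -0.18 (adjusted p = 0.16) and RPS3A at -0.19 (adjusted p = 0.11). The count of 10 was 2 without GFP replicate 1 or 2, 5 without GFP replicate 3, 5 without CTNNB1 replicate 1, 4 without CTNNB1 replicate 2, 20 without CTNNB1 replicate 3, 6 without shNT1 replicate 2, 22 without shAPC replicate 1, 4 without shAPC replicate 2 and 3 without shAPC replicate 3. RPS3A lost its call without GFP replicate 1 (-0.28, adjusted p = 0.051), and RPL13A without GFP replicate 2 or 3, CTNNB1 replicate 1, shNT1 replicate 3, or shAPC replicate 2 or 3 (-0.24 to -0.31, adjusted p from 0.055 to 0.086). Ribosomal protein genes have many pseudogenes, and how shared reads were counted is not given in the sources used here. shAPC had the highest group mean for 74 of the 79, and for 3029 of the 11741 genes tested. The 10 most abundant genes took 10.3% to 11.3% of the TPM in shAPC libraries.

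**Figure D5:**
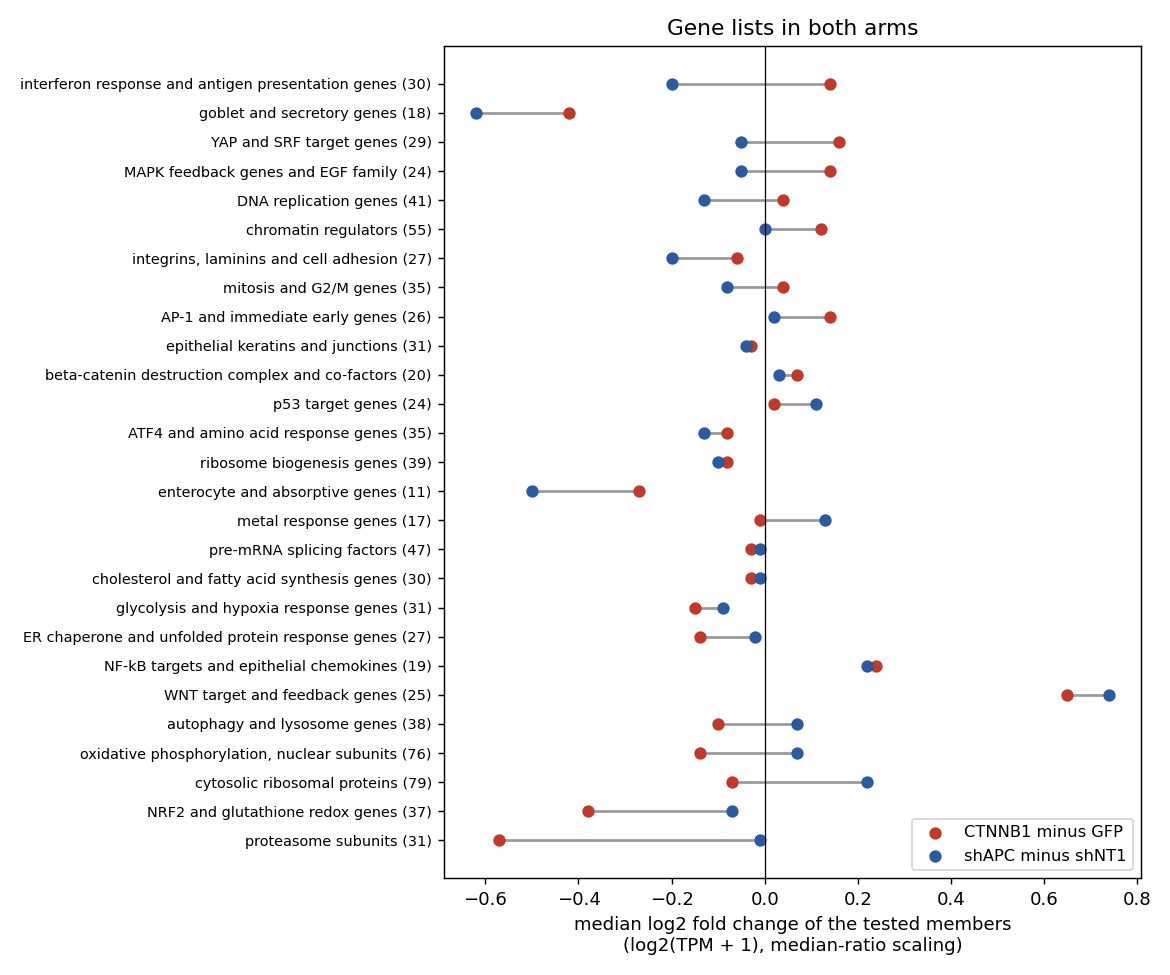
Median log2 fold change (log2(TPM + 1), median-ratio scaling) of the tested members of 27 gene lists after CTNNB1 (red) and after shAPC (blue), with the number of members in brackets and the lists ordered by their median difference. Proteasome subunits lie at -0.57 after CTNNB1 and -0.01 after shAPC, interferon genes at 0.14 and -0.20, and ribosomal proteins at -0.07 and 0.22, while WNT targets lie at 0.65 and 0.74.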

How the data were processed

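RNA-seq libraries of HT-29 cells were compared in 4 groups of 3, grouped by their labels. The authors deposited 1 table of TPM per gene and library. Per the submitters' processing notes, STAR 2.7.3a, the hg38 build and limma were used, and the quantifier and annotation are not given in the sources used here. TPM keeps no depth, and 1 library's TPM depends on what its other genes take. The authors also deposited a table of log2 fold changes with adjusted p-values for each arm, which gave the Ensembl identifiers of 23217 of 25528 rows and the comparison in the closing section. Another 27 row names had been turned into dates. All columns of the table were mapped to libraries.

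Genes with a mean of at least 1 TPM were kept, and log2(TPM + 1) was fitted with limma 3.58.1 in R 4.3.3 (1 fit of all 12 libraries, mean-variance trend, 8 residual degrees of freedom). The contrast was the CTNNB1 effect minus the shAPC effect, with Benjamini-Hochberg adjustment over all 11741 genes and a threshold of 0.05. Fold changes are on the log2(TPM + 1) scale, which understates those of low genes. The fit was repeated after median-ratio scaling (factors 0.962 to 1.05), and classes had to hold in both. The fit was also run on simulated counts with the same assumed depth and spread for every gene. The depth of these libraries is unknown, so that run does not show their error rates. Named genes are the 5 with the largest difference in each class and direction (mean of at least 5 TPM, no overlap in the called arms), APC and CTNNB1, and up to 4 called members per gene list. Others are marked as chosen after their values were seen, and genes of a list given by name to account for its count were likewise chosen so. The contrast, the lists and the rule were set with earlier results of these data known. Promoter windows came from RefSeq (GRCh38.p14). Alternatives were the pseudocount, the filter, scaling, the trend, the threshold, length and GC trends, a replicate block and leaving out each library. Replicate numbers do not mark a shared culture in the labels, and in the shAPC arm libraries of the same number had no deviation in common.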

Additional observations from a re-analysis of the deposited data

How the results depend on the processing

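The difference was called for 1145 genes with a replicate block within each arm, and 253 genes then changed in the shAPC arm only. In the CTNNB1 arm the correlations of same-numbered deviations from the group means were 0.21, 0.08 and 0.12, against -0.19 to 0.08 for unlike numbers. In the shAPC arm they were -0.14, 0.00 and -0.21, against -0.13 to 0.21 for unlike numbers. Same-numbered libraries thus tended to deviate together, weakly, in the CTNNB1 arm only. With the block MORN2 (adjusted p = 0.069), RPS27A (0.08), ATF3 (0.065) and CYR61 (0.065) lost their called difference, and no other of the 102 named genes did. GPX3, GABARAPL1, ALDH1A1 and RPL13A, among others, left their class with the block. IFI27, DDX60, OASL, IFIT3, PHLDB2, MSRB1 and SQSTM1 were among those that kept it. At an adjusted p under 0.01, 628 genes differed, 32 were opposite, 147 were CTNNB1 only and 148 shAPC only, and the arms had 1602 and 1616 calls. Opposite genes numbered 146 with the GC trend removed, 161 after quantile normalization and 151 in TPM as deposited alone, a setting chosen after seeing the data, under which the CTNNB1-only and shAPC-only classes held 655 and 744. Median-ratio scaling alone gave 536 CTNNB1-only genes. With 1 library left out, 995 to 2143 genes differed, 60 to 106 were opposite, 213 to 379 CTNNB1 only and 212 to 419 shAPC only, with 2028 to 3226 calls in the CTNNB1 arm and 2027 to 3615 in the shAPC arm. RPS16 stood at 0.00 after quantile normalization. Without a filter on low values 11 of the named genes lost their call. The cause of these shifts was not tested. Depth is unknown, so no limit of detection is given for low genes.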

Other observations

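Beyond the lists described, oxidative phosphorylation, chromatin and goblet cell genes were also set against the contrast. Of 76 nuclear-encoded subunits of oxidative phosphorylation, 1 had a positive and 8 a negative difference under both scalings (11.8%, against 9.48% of all genes, and 2.73% for negative differences), and 5 fell after CTNNB1 only. NDUFA4, a subunit of the respiratory chain, was measured at 195, 178 and 170 TPM in GFP, 124, 135 and 140 TPM in CTNNB1, 155, 151 and 135 TPM in shNT1, and 149, 182 and 168 TPM in shAPC. CTNNB1 lay below all other groups except 1 shNT1 library, and shAPC overlapped both controls (difference -0.61, limma adjusted p = 0.0027). The count of 8 fell to 1 without GFP replicate 1, GFP replicate 2, shAPC replicate 2 or shAPC replicate 3, to 3 without CTNNB1 replicate 2, shNT1 replicate 2 or shNT1 replicate 3, and to 5 without GFP replicate 3. Of 55 chromatin regulators 1, NSD2, differed under both scalings (1.82%). Of 18 goblet and secretory genes 8 fell after CTNNB1 and 11 after shAPC (7.17% and 16.9% of all genes fell), with medians of -0.36 after CTNNB1 and -0.66 after shAPC, and 5 had a positive difference (27.8%, against 6.75% of all genes).

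The classes differed in transcript length. The median length was 988 bases over all genes, 1476 and 904 for genes that rose or fell after CTNNB1 only, 796 and 1524 for genes that rose or fell after shAPC only, and 1299 and 778 for opposite genes with a positive or negative difference. Across 11486 genes with a length, Spearman's rho between the difference and length was 0.13, given as a description since genes are not independent replicates. With each library's trend with length removed, 78 of the 91 opposite, 286 of the 350 CTNNB1-only and 309 of the 386 shAPC-only genes kept their class.

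In the authors' deposited tables, all 73 opposite genes found there that were higher after CTNNB1 had the same signs, and 39 had an adjusted p under the threshold in both arms. Of the 17 reverse genes 10 did. Over the threshold by the authors' limma after shAPC were GPX3 (adjusted p = 0.092), GABARAPL1 (0.1), PRAP1 (0.16) and IFI6 (0.087), among others. After CTNNB1, IFI44 (0.089) and TAPBP (0.056) were among those over it. For genes of 1 arm only, that arm passed for 168 of 208 (CTNNB1, up) and 131 of 141 (CTNNB1, down). It passed for 36 of 64 (shAPC, up) and 279 of 322 (shAPC, down). The authors' deposited tables used the same libraries and are no independent evidence.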
